A study of Mus musculus with 27 samples.

Results

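Liver and skeletal muscle of the same 4 male *Mlx*KO mice were compared at 5 months of age, to describe the gene programs of the tissues and the enzymes and structural proteins for which each tissue uses a different gene. The comparison takes every liver and muscle sample of that age, 8 of the 27 samples of the series, and pairs them by the mouse number that ends the sample names. Each mouse is named here by its muscle sample (X5S4299, X5S5001, X5S5238 and X5S5239), and its liver sample has X5L in place of X5S. Of the 36333 genes in the table, 13362 reached a value of 1 or more in 4 or more of the 8 samples and were tested. The mice carried *Mlx* alleles flanked by loxP sites together with a CreER transgene, a tamoxifen-activated recombinase driven by the ubiquitous ROSA26 promoter. The strain is given as a cross of Gt(ROSA)26Sortm1(cre/ERT2) mice, on B6.129, with Mlx Flox/Flox mice. Every mouse, whichever tissue was taken, had the same treatment, 5 daily tamoxifen injections of 75 mg/kg into the peritoneum once it was weaned and weighed at least 15 g. The allele, the transgene and the tamoxifen were thus shared by both groups, and no comparison between them measures the effect of losing *Mlx*. The degree of the loss was not shared. For mice with these numbers the study reported far less of the wild-type *Mlx* level left in liver than in muscle, by qRT-PCR. Tissue and degree of *Mlx* loss therefore cannot be told apart. Wild-type samples were not analysed here, and the series holds adipose tissue and 20-month-old animals besides.

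Liver and skeletal muscle divide much of the body's fuel handling. Hepatocytes make the plasma proteins, build lipoproteins and bile acids, dispose of ammonia through the urea cycle, and release glucose and ketone bodies that other tissues burn. Muscle fibres are built around the sarcomere, the contractile unit, which is switched on by calcium released from the sarcoplasmic reticulum and powered by phosphocreatine, stored glycogen and mitochondrial oxidation. Many steps that both tissues perform are carried out by paralogous enzymes encoded by separate genes, often called liver and muscle isoforms, which differ in affinity or regulation. *Mlx* encodes a basic helix-loop-helix leucine zipper protein that binds DNA with the glucose-sensing partners encoded by *Mlxip* (MondoA) and *Mlxipl* (ChREBP).

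Each value is the number of reads on a gene divided by a factor of its library, so values compare between samples but not between genes of different length. Reads on genes amounted to 17200431 to 20734388 per liver and 14384695 to 17073669 per muscle. A gene with 3 reads had a value of 0.191 to 0.240 in liver and 0.209 to 0.242 in muscle, and a gene listed at 0 lies below that floor, which covers counting error only. The 20 most abundant genes took 23.8% to 25.9% of the reads in liver and 27.4% to 29.2% in muscle. Differences are liver minus muscle on the log2(value + 1) scale, fitted with limma over all genes tested and with the mouse as a block, and p-values are adjusted over those genes by the Benjamini-Hochberg method. That scale understates the difference of low genes. The sample labels name an RNeasy kit for liver RNA and an RNeasy Lipid Tissue kit for muscle RNA, whereas the study's methods name a single kit for all samples. If the kits differed, kit and tissue cannot be told apart. In whole tissue, fewer cells of a type and less RNA per cell cannot be told apart either.

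Several libraries stood apart from the others of their tissue. Values per mouse are given throughout in the order X5S4299, X5S5001, X5S5238 and X5S5239. Transcripts of liver proteins were found in muscle, most in mouse X5S5238. The median plasma protein gene reached 0.00241%, 0.0362%, 0.370% and 0.0403% of its level in the liver of the same mouse. *Alb*, which encodes albumin, had values of 0.999, 24.9, 222 and 27.5 in the muscles. In the other direction, the median sarcomere gene in the livers was at most 0.000581% of its muscle level, and the median gene of excitation and calcium release at most 0.00656%. Muscle X5S4299 held more slow-fibre transcripts than the other 3. *Myh7*, the slow myosin heavy chain, had values of 1171, 107, 102 and 112, and *Atp2a2*, the calcium pump of slow fibres and of many other cells, had values of 871, 156, 121 and 117. The slow-fibre genes summed to 3454, 621, 622 and 502, whereas the fast-fibre genes summed to 156607 to 194781 in all 4 muscles. These sets were chosen after the values were seen, and the slow-fibre sum includes *Atp2a2* and *Tpm3*. Its member *Myh7b* was not highest in X5S4299, with values of 9.14, 9.997, 11.7 and 12.9. The labels do not name the muscle that was dissected.

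Muscle X5S5001 was the highest of the 4 for heat shock and immediate-early genes. These genes too were chosen after the values were seen. *Hspa1a*, an inducible HSP70 chaperone, had values of 120.2, 4176, 168 and 1085 in muscle and 7.57, 3.71, 0.214 and 0.240 in liver. Liver and muscle did not overlap for it, although the 4 muscles spread widely. The co-chaperone gene *Dnajb1* had values of 23.6, 692, 15.5 and 88.4 in muscle, and the transcription factor gene *Egr1* had values of 115, 859.6, 28.3 and 42.6. Neither *Egr1* (log2 difference -1.50, SE 0.82, adjusted p = 0.13) nor *Dnajb1* (-1.08, SE 0.75, adjusted p = 0.21) passed the test. Without mouse X5S5001 the differences of *Egr1* and *Dnajb1* were -0.35 and -0.07. *Hspa1a* and its neighbour *Hspa1b* share about 60.3% and 62.3% of their 50-base words with each other, so reads may have been divided between them. In liver, X5L5001 had a *Lpin1* value of 229 beside 10.8 to 17.2 in the other livers. The plot of individual muscle libraries shows the 3 sets of genes that set muscles apart.

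**Figure D1:**
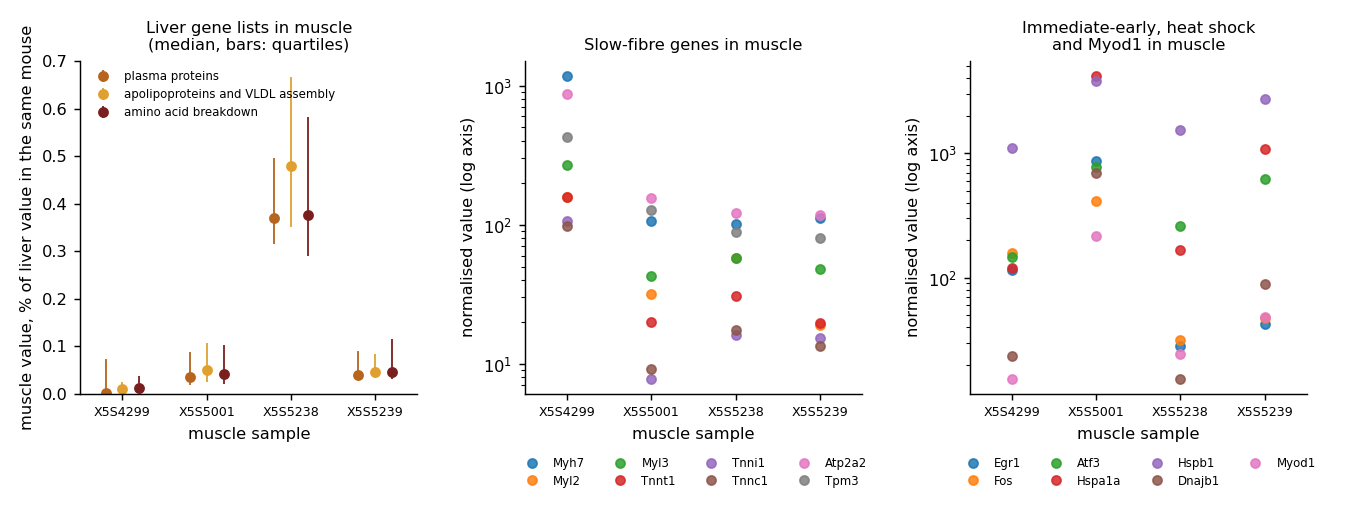
Muscle libraries of the 4 mice at 5 months. The left panel gives the level of liver genes in muscle as a percentage of the liver of the same mouse (points are the median of each list, bars the quartiles), and the other panels give normalised values of slow-fibre genes and of heat shock and immediate-early genes on log axes. Mouse X5S5238 is highest in the first panel, X5S4299 in the slow-fibre panel and X5S5001 for most genes of the last.

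The tissue labels were checked against marker genes. The 8 hepatocyte markers summed to 124192 to 185234 in the livers and 66.5 to 416 in the muscles, and the 8 muscle fibre markers to 0.855 to 1.36 and 164444 to 180535. All 8 of each list passed the test in the direction of their label, and 4 of the 8 muscle fibre markers were at 0 in every liver. Each tissue also brought cells of its own. The 5 Kupffer cell markers, the macrophages of liver, summed to 141 to 235 in liver and 1.31 to 2.10 in muscle, and the 5 stellate cell markers to 125 to 139 and 8.45 to 13.9. Muscle was higher for tendon (524 to 668, against 1.02 to 3.05 in liver), fibroblast (948 to 1375, against 204 to 331), general endothelial (525 to 579, against 125 to 191) and Schwann cell markers (89.6 to 147, against 2.56 to 3.69). The 5 markers of liver sinusoidal endothelium went the other way, all higher in liver (175 to 360.1, against 34.1 to 60.1 in muscle). The 8 adipocyte markers were split, and summed to 438 to 680.0 in liver and 932 to 1115 in muscle. Of the 6 tested, 4 were higher in muscle and 2, *Cidec* (143 to 219 in liver and 12.99 to 26.5 in muscle) and *Adrb3* (5.20 to 8.66 and 0.235 to 1.77), were higher in liver. *Adipoq*, which adipocytes secrete, had values of 6.07, 8.46, 5.64 and 12.9 in muscle and at most 0.0800 in liver. The part of these other cells in the differences below was not tested.

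*Mlx* itself was detected in every sample. Values were 24.2, 32.4, 30.4 and 28.9 in liver and 9.91, 9.11, 11.6 and 7.04 in muscle, so the tissues did not overlap and the liver level was higher by 1.54 on the log2 scale (SE 0.15, adjusted p = 3.6e-05). The gene lies on chromosome 11 from 101086707 to 101092207 of GRCm38.p6 and overlaps *Psmc3ip* there. Excision removes internal exons only, and a count over the whole gene, overlap included, does not measure how complete it was in either tissue. For mice with these numbers the study reported *Mlx* by qRT-PCR, relative to wild-type samples of the same tissue. Far less of the wild-type level was left in liver than in skeletal muscle. The higher count in liver thus does not mean more intact *Mlx* there. The 120 bases before the RefSeq start used for *Mlx*, which lies inside that interval, hold the sequence CACGTG, the E-box that proteins of this class bind, 40 bases upstream. It is shown in capitals, from RefSeq for GRCm38.p6, plus strand, chr11:101087170-101087289.
Mlx: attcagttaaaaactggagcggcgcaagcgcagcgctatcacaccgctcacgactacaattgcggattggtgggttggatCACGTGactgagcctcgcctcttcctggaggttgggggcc

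Most of the transcriptome differed between the tissues. Of the 13362 genes, 10531 (78.8%) passed an adjusted p of 0.05, 5338 (39.9%) with a higher level in liver and 5193 (38.9%) with a higher level in muscle. The median difference over all genes was 0.03. For 9693 genes (72.5%) the 4 livers and the 4 muscles did not overlap. A difference of at least 3 on the log2 scale, an 8-fold change, was reached by 1121 genes in liver (8.39%) and 913 in muscle (6.83%), which are called strong below. By edgeR and DESeq2 on recovered reads, both with the mouse as a block, the larger count was that of muscle, with 1471 genes in liver and 1545 in muscle by edgeR and 1492 and 1551 by DESeq2. Because 78.8% of the genes passed, a call alone separates little, and the size of a difference is given with each count. Each count of a gene list below is to be read beside these shares of all genes, 39.9% higher in liver and 38.9% higher in muscle. The plot of tissue means shows the named genes against all genes tested.

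**Figure D2:**
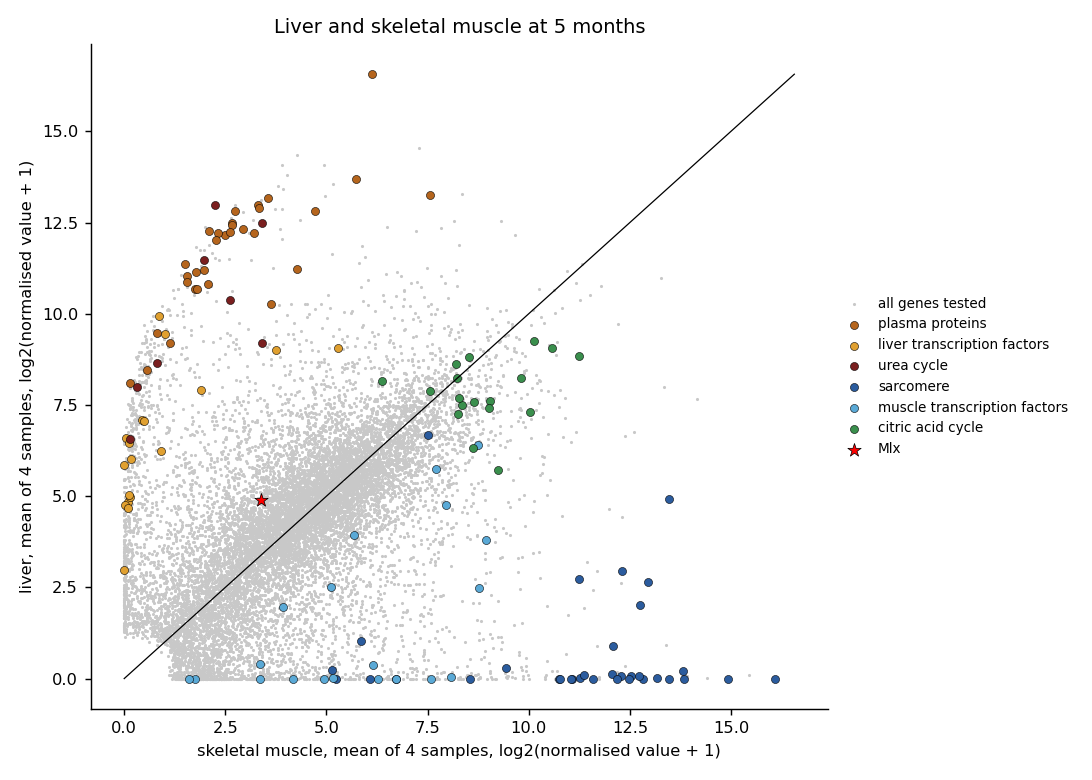
Mean of 4 livers (vertical axis) against mean of 4 muscles (horizontal axis), both as log2(normalised value + 1), with 1 point per gene for the 13362 genes tested. Coloured points are members of 6 gene lists and the star is *Mlx*. The plasma protein genes sit far above the diagonal and the sarcomere genes far below it, with *Tpm3* as the exception near it.

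The highest liver-to-muscle differences belonged to secreted proteins and to enzymes of amino acid and lipid metabolism. *Alb* led, with liver values of 103203, 125324, 73619 and 85608 and a difference of 11.95 (SE 0.95, adjusted p = 9.1e-06). The muscle level behind it varied with the library, as given above, and without mouse X5S5238 the difference was 13.15. *Mat1a*, which makes S-adenosylmethionine in liver, had values of 15721, 21881, 17104 and 14060.3 in liver and 0.231, 4.19, 48.2 and 3.55 in muscle. *Cps1*, which commits ammonia to the urea cycle, had values of 7924, 12912, 5997 and 5643 in liver and 0, 1.53, 10.3 and 3.07 in muscle, a difference of 11.19 (SE 0.57, adjusted p = 6.4e-07). The other 12 of the 15 genes with the highest differences were *Cyp4a14* (11.26) and *Cyp4a10* (10.70), which hydroxylate fatty acids, the lipoprotein genes *Apob* (11.11) and *Apoa1* (10.96), the methyl transfer enzyme gene *Bhmt* (10.85), and the plasma protein genes *Serpina3k*, *Pzp*, *Serpina1c*, *Ahsg*, *Gc*, *Mug1* and *Fga* (from 10.76 to 11.20). Among these, *Serpina1c* has 74.2% of its 50-base words in common with other genes, *Bhmt* 59.6%, *Mug1* 32.9% and *Cyp4a10* 29.8%, so their own levels are uncertain. All 15 had their highest muscle value in mouse X5S5238, and no liver overlapped any muscle.

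In muscle the highest differences belonged to fast-fibre contractile proteins and calcium handling. *Myh4*, the myosin heavy chain of the fastest fibres, had no read in any liver and values of 63805, 68956, 69981 and 77597 in muscle, which is at least 292124-fold higher against the floor of 3 reads in each library. *Acta1*, skeletal muscle actin, was likewise at 0 in every liver and had values of 34371, 30911, 33318 and 25482 in muscle, at least 129297-fold higher. *Atp2a1*, the calcium pump of the fast sarcoplasmic reticulum, had values of 41485, 44665, 47704 and 43414 in muscle and at most 0.160 in liver, a difference of -15.33 (SE 0.11, adjusted p = 1.3e-10). *Ckm*, the creatine kinase of muscle, had 19769, 19069.7, 25817 and 22805 in muscle and 1 read in all 4 livers together. The rest of the 15 genes were *Tnnt3*, *Tnni2*, *Myl1*, *Mybpc2*, *Actn3*, *Ttn*, *Flnc* and *Myh1*, which build the sarcomere and its anchors, the calcium buffer gene *Pvalb*, the glycogen phosphorylase gene *Pygm*, and *Ryr1*, the calcium release channel. Their differences lay between -12.42 and -13.79. Of the myosin genes, other genes contain 25.4% of the 50-base words of *Myh1* and 18.9% of those of *Myh4*. Among the muscles, *Flnc* varied most of these genes and *Atp2a1* little.

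The starts of some of these genes carry short sequences known from tissue-specific promoters, and 5 are shown as examples from genes described in the text. They do not stand for the other genes. *Pvalb*, *Mybpc2* and *Ryr1*, with wider differences than *Ppp1r3a*, hold none of the sequences searched in the 250 bases before the start. Each is the 120 bases before the annotated start, from RefSeq for GRCm38.p6, in the direction of the gene. Capitals mark a TATA box (TATAAA), the CArG box that serum response factor binds, the E-box CAGCTG of MyoD and related factors or the MEF2 core (CTA and TAG with any 4 bases between them). The positions are chr5:90460750-90460869 on the plus strand for *Alb* and chr6:71199759-71199878 on the plus strand for *Fabp1*. They are chr11:67237692-67237811 on the plus strand for *Myh4*, chr8:123894776-123894895 on the minus strand for *Acta1* and chr6:14755275-14755394 on the minus strand for *Ppp1r3a*.
Alb: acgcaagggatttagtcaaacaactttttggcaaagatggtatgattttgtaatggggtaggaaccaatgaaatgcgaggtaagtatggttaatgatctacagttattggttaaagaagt
Fabp1: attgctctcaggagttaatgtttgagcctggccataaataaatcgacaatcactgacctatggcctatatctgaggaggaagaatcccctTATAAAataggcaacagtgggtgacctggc
Myh4: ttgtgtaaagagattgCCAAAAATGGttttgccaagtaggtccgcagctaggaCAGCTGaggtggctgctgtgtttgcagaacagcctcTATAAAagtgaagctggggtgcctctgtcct
Acta1: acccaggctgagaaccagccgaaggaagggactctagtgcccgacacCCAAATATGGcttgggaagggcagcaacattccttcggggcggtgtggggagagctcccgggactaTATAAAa
Ppp1r3a: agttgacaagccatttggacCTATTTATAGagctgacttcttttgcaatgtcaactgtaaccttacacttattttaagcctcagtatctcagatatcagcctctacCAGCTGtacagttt

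The window of the fatty acid binding protein gene *Fabp1* holds a TATA box 30 bases before the start. *Myh4* holds a CArG box at 104, CAGCTG at 67 and a TATA box at 31, *Acta1* a CArG box at 73 and a TATA box at 7, and *Ppp1r3a* a MEF2 core at 100 and CAGCTG at 14. None of these exact letters stands in the 120 bases of *Alb*, which says nothing of the factors themselves. Over the 250 bases before the start, an HNF4 core (CAAAGTCCA) stood in 0.381% of all promoters, 0.376% of those of genes tested, 1.61% of those of strong liver genes and 0.295% of those of strong muscle genes. The MEF2 core stood in 3.23% of all promoters, 2.85% of those of genes tested, 1.85% of those of strong liver genes and 6.04% of those of strong muscle genes, the CArG box in 1.40% of all promoters, 1.15% of those of genes tested, 1.15% of those of strong liver genes and 3.09% of those of strong muscle genes, and CAGCTG in 12.8% of all promoters, 11.8% of those of genes tested, 11.5% of those of strong liver genes and 18.1% of those of strong muscle genes. The E-box CACGTG stood in 6.05% of all promoters, 8.41% of those of genes tested, 6.34% of those of strong liver genes and 7.07% of those of strong muscle genes. These shares are over 27025 genes with a promoter sequence, 10627 genes tested, 867 strong liver genes and 679 strong muscle genes, with both strands searched except for the TATA box, and a match is a description of the letters and not of a site in use. The CArG box was searched as its usual pattern and is counted separately from the others, although a match can overlap one of them.

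Proteins that liver secretes were higher there throughout the lists examined. All 31 plasma protein genes were higher in liver, with a median difference of 9.89 beside 0.03 over all genes. The lowest of them was the complement gene *C3* (5.75), with values of 137 to 255 in muscle. All 16 genes of apolipoproteins and lipoprotein assembly were higher in liver (median 8.92). *Apob*, the scaffold of very low density lipoprotein, had values of 7431, 7253, 7713 and 9661 in liver and 0, 1.13, 18.2 and 3.14 in muscle. *Mttp*, which loads lipid onto it, was at 712 ± 26.8 (mean ± SD, n = 4) in liver and 4.81 ± 1.04 in muscle. Without mouse X5S5238, the median of the plasma proteins was 10.62 and all 31 still passed. Of 12 secreted regulators of liver, all were higher there (median 5.03), among them *Igf1* (5.07, SE 0.20), the growth factor that acts for growth hormone, and *Hamp* (9.37, SE 0.50), which encodes the iron hormone hepcidin. *Fgf21*, a hormone of fasting and a target of ChREBP, had values of 42.2, 21.7, 30.2 and 28.3 in liver and 0 to 0.313 in muscle.

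Nitrogen and glucose handling followed the same direction. All 8 urea cycle genes (median 7.82) and all 22 genes of amino acid breakdown (median 8.59) were higher in liver. *Arg1*, which releases urea, had values of 2942, 3395, 2673 and 2300.3 in liver and 0, 2.74, 8.61 and 0.279 in muscle. *Tat*, which begins tyrosine breakdown, had 3133, 6722, 2531 and 2298 in liver and 0.154, 1.45, 7.91 and 0.279 in muscle. All 14 glucose output and hepatic sugar genes were higher in liver (median 5.29). *G6pc*, whose product frees glucose for export, had values of 547, 610.1, 579.8 and 612 in liver and 0.0768 to 2.04 in muscle (difference 8.60, SE 0.24, adjusted p = 2.5e-08). *Pck1*, which makes phosphoenolpyruvate for gluconeogenesis, had 6055, 7484, 5623 and 5102 in liver and 19.6, 16.8, 24.8 and 16.03 in muscle. The narrowest gap in that list was that of *Slc37a4*, the glucose-6-phosphate transporter (0.92, SE 0.23).

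Bile acid, ketone and peroxisomal genes were also liver genes, with a split in ketone metabolism. All 15 genes of bile acid synthesis and transport were higher in liver (median 6.56). *Cyp7a1*, the rate-limiting enzyme of bile acid synthesis, had values of 186, 8.51, 64.3 and 50.6 in liver and at most 0.313 in muscle. Of 4 genes for making and exporting ketone bodies, 3 were higher in liver, whereas the transporter gene *Slc16a6* was higher in muscle (-0.68, SE 0.15, adjusted p = 0.0037). For ketone use the direction turned. *Oxct1*, without which a tissue cannot burn ketone bodies, had values of 8.59, 7.20, 4.92 and 4.80 in liver and 526, 537, 461 and 447 in muscle, a difference of -6.09 (SE 0.12, adjusted p = 5.7e-09). *Acat1*, which acts in both directions of the pathway, was higher in liver (1.42, SE 0.13, adjusted p = 1.9e-05). All 10 peroxisomal oxidation genes were higher in liver (median 4.87), with *Ehhadh* at 9686, 10429, 12853 and 15602 in liver and 50.3, 13.4, 55.7 and 19.9 in muscle.

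The plot of gene lists sets these liver programs beside those of muscle, which follow.

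**Figure D3:**
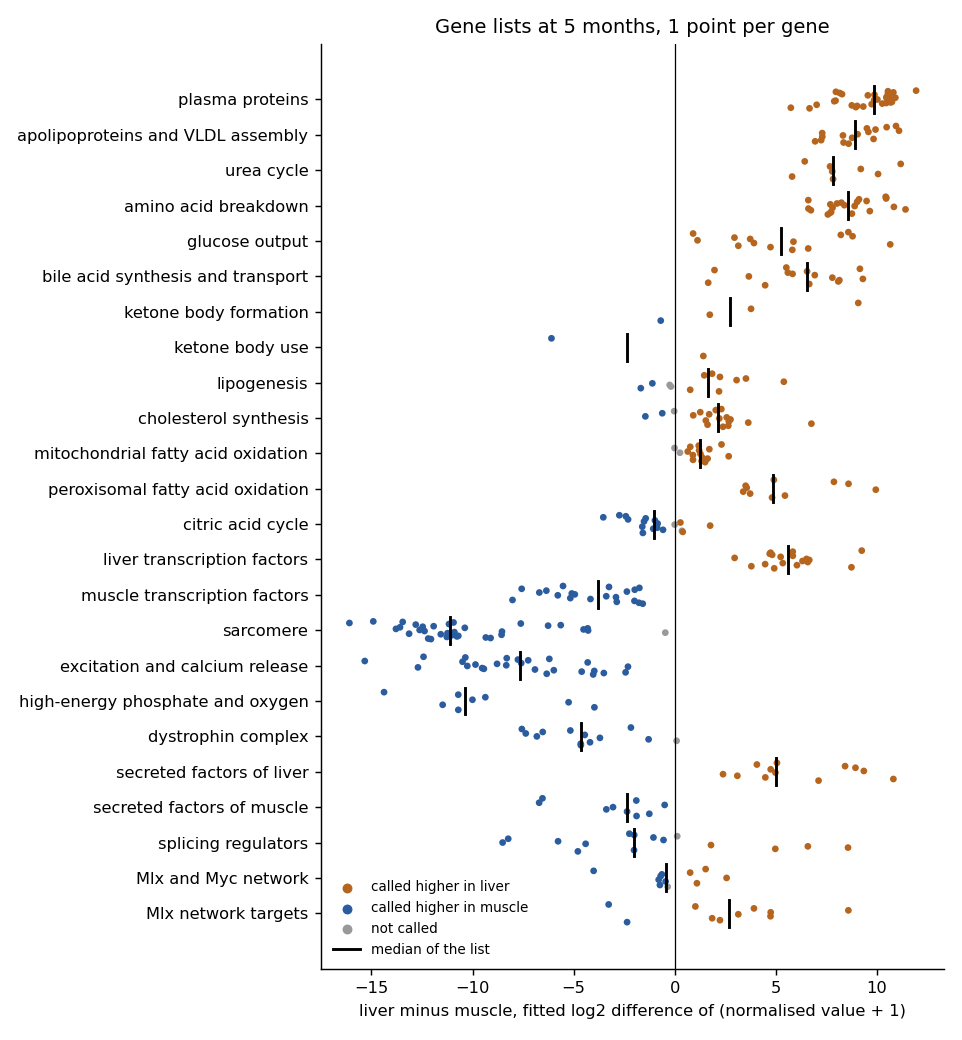
Fitted log2 difference, liver minus muscle, for the members of each gene list at 5 months. Each point is 1 gene, coloured by whether it passed an adjusted p of 0.05 in either direction, and the black bar is the median of the list. Plasma protein genes have a median of 9.89, sarcomere genes one of -11.10, and the citric acid cycle and mitochondrial fatty acid oxidation lists have medians of -1.01 and 1.25.

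The contractile apparatus was far higher in muscle. Of 34 sarcomere genes, 33 were higher in muscle, with a median of -11.10, and 16 had no read in any liver. With those 16 at the bound that 3 reads allow, the median was -12.06. The exception was *Tpm3*, a tropomyosin of slow fibres and of other cells, with values of 97.6, 106, 101 and 103 in liver and 426, 127, 88.3 and 80.6 in muscle (difference -0.46, SE 0.37, adjusted p = 0.28). It was the mouse with the high slow-fibre transcripts, X5S4299, that set its muscle mean, and without that mouse the difference was 0.09 (adjusted p = 0.59). *Ttn*, the molecular spring of the sarcomere, had values of 16131, 16011, 11082 and 14441 in muscle and 0 to 0.320 in liver. *Myh2*, the myosin of fast oxidative fibres, had 2865, 2958, 1703 and 1028 in muscle and 0 in liver. *Tnnt1*, slow troponin T, had 157, 20.2, 30.7 and 19.7 in muscle and 0.573, 0.509, 1.996 and 1.04 in liver.

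Excitation and energy buffering followed the sarcomere. All 26 genes of excitation and calcium release were higher in muscle (median -7.67, or -7.95 with 7 genes at their bound). *Ryr1* had values of 5162, 5865, 5206 and 6634 in muscle and at most 0.145 in liver, and its partner in the surface membrane, *Cacna1s*, had 1213, 1483, 1289 and 1457 in muscle and at most 0.0727 in liver. All 8 genes of high-energy phosphate and oxygen supply were higher in muscle (median -10.35, or -12.42 with 4 at their bound). *Mb*, myoglobin, was at 0 in every liver and at 2862, 2754, 3795 and 2208 in muscle, at least 12106-fold higher. In the dystrophin complex, which ties the sarcomere to the matrix, 12 of 13 genes were higher in muscle (median -4.64). The remaining gene, *Utrn*, encodes utrophin, which stands in for dystrophin in other cells, and had values of 53.6, 60.9, 50.2 and 64.6 in liver and 68.6, 57.3, 37.5 and 54.0 in muscle (difference 0.10, SE 0.14, adjusted p = 0.53, 95% interval -0.22 to 0.42). Of 10 secreted factors of muscle, 9 could be tested and all 9 were higher there (median -2.35). *Mstn*, the inhibitor of muscle growth myostatin, had values of 98.0, 144, 69.8 and 72.5 in muscle and 0 in liver.

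The transcription factors of each tissue separated too. All 18 liver factors were higher in liver (median 5.60). *Hnf4a*, a nuclear receptor that maintains the hepatocyte program, had values of 967, 1434, 743 and 759 in liver and 0, 0.242, 2.90 and 0.139 in muscle. All 20 muscle factors were higher in muscle (median -3.77, or -5.12 with 8 at their bound). *Myf6*, the myogenic factor of adult fibres, had 150.1, 252, 175 and 191 in muscle and 0 in liver. *Tbx15*, a factor of fast fibres, had 263, 239, 274 and 301 in muscle and at most 0.0800 in liver. *Myod1* had no read in liver and values of 15.4, 218, 24.2 and 48.1 in muscle, where the muscle that was high in heat shock genes, X5S5001, was also the highest. Some factors with reads in both tissues differed less than the median muscle factor, as for *Mef2a* (-1.97, SE 0.11), *Mef2d* (-2.36, SE 0.10) and the coactivator gene *Ppargc1a* (-1.76, SE 0.25). Reads in both tissues did not always go with a small gap. *Mef2c* had 259 reads in all livers together and 23053 in all muscles, and *Smyd1* had 713 and 25786.

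Regulators of splicing were divided between the tissues. Of 17 genes, 15 could be tested, of which 4 were higher in liver, 10 higher in muscle and 1 did not pass. *Rbfox1*, a splicing factor of muscle and brain, had values of 303, 286, 307 and 323 in muscle and at most 0.0636 in liver. *Rbm24*, which directs muscle exons, had 288, 372, 367 and 445 in muscle and 0 in liver, and *Rbm20*, the regulator of titin splicing, had 160.4, 283, 145 and 175 in muscle and 2.80, 2.25, 2.64 and 1.999 in liver. On the liver side stood *A1cf*, the partner of the apolipoprotein B editing enzyme, with 433, 453, 458 and 503 in liver and 0 to 1.10 in muscle, and the epithelial splicing factor *Esrp2* (6.60, SE 0.16, adjusted p = 1.2e-08). *Ptbp1*, a repressor of many tissue-specific exons, was higher in liver (1.80, SE 0.18, adjusted p = 3.1e-05), and the muscleblind genes *Mbnl1* (-2.24, SE 0.09) and *Mbnl2* (-1.998, SE 0.11) were higher in muscle. *Celf1* did not pass (0.13, SE 0.09, adjusted p = 0.23). The values are sums over each gene, so which exons were used was not measured.

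The oxidative pathways that both tissues run were less uniform. Of 18 citric acid cycle genes, 13 were higher in muscle, 3 higher in liver and 2 did not pass, with a median of -1.01. *Idh3a*, a subunit of the NAD-linked isocitrate dehydrogenase, had the largest gap, with 60.8, 46.3, 49.6 and 48.7 in liver and 503, 517, 714 and 698 in muscle. *Cs*, citrate synthase, had 139, 144, 149.7 and 199 in liver and 1061, 1125, 1023 and 972 in muscle. Succinyl-CoA ligase showed a split between its subunits. *Sucla2*, which makes the ligase specific for ADP, was higher in muscle (-1.60, SE 0.11, adjusted p = 3.5e-06). *Suclg2*, which makes the one specific for GDP, was higher in liver (1.76, SE 0.13, adjusted p = 5.5e-06), and the shared subunit *Suclg1* did not differ detectably (95% interval -0.26 to 0.28). *Dlst* (0.29, SE 0.10, adjusted p = 0.030) and *Fh1* (0.40, SE 0.15, adjusted p = 0.039) were higher in liver by small amounts, and between 1 and 3 genes of the list were higher in liver over the alternative analyses.

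Mitochondrial fatty acid oxidation leaned towards liver. Of 16 genes, 14 were higher in liver and 2 did not pass (median 1.25). *Acaa2*, which ends the spiral, had 1182, 1196, 1218 and 1296 in liver and 203, 179, 212 and 169.6 in muscle, and *Cpt2*, which takes in the acyl groups, had 527, 608, 516 and 559 in liver and 156, 106, 97.1 and 88.6 in muscle. *Acadl*, the long-chain acyl-CoA dehydrogenase, had 497, 525, 502 and 519 in liver and 539.7, 509, 546 and 456 in muscle, a difference with a 95% interval of -0.27 to 0.26. *Hadhb* also did not pass (0.27, SE 0.12, adjusted p = 0.072).

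Lipid synthesis was higher in liver for most genes but not all. Of 12 lipogenesis genes, 8 were higher in liver, 2 higher in muscle and 2 did not pass (median 1.66). *Fasn*, fatty acid synthase, had 100.1, 78.0, 59.2 and 82.8 in liver and 20.5, 19.8, 10.02 and 15.1 in muscle, and *Scd1*, the desaturase, had 2670.0, 586, 2321 and 1909 in liver and 147, 89.1, 116 and 248 in muscle. The genes higher in muscle were *Me1*, the cytosolic malic enzyme (-1.10, SE 0.09, adjusted p = 1.5e-05), and *Pnpla3* (-1.67, SE 0.17, adjusted p = 3.5e-05). *Srebf1*, the lipogenic transcription factor, did not pass (-0.24, SE 0.11, adjusted p = 0.070), and neither did *Thrsp* (-0.18, SE 0.18, adjusted p = 0.39). Of 18 genes of cholesterol synthesis and uptake, 15 were higher in liver (median 2.13). Against that direction, *Fdft1*, squalene synthase, was higher in muscle (-1.45, SE 0.21, adjusted p = 3.5e-04), as was *Mvd* (-0.61, SE 0.17, adjusted p = 0.012).

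Members of the network around Mlx and Myc, and targets of the glucose-sensing factors, were present in both tissues of these knockout mice. By the study's qRT-PCR the tissues also differed in how much *Mlx* was left. The part of that in the differences below was not tested. Of 13 network genes, 11 could be tested, of which 4 were higher in liver and 6 in muscle (median -0.44). Over all genes tested, 39.9% were higher in liver and 38.9% in muscle, so these counts alone do not set the list apart. *Mlxip* had values of 13.6, 27.3, 10.9 and 14.5 in liver and 353, 277, 231 and 219.9 in muscle, a difference of -4.01 (SE 0.20, adjusted p = 6.1e-07). *Mlxipl* had 86.3, 119, 83.2 and 102 in liver and 57.5, 35.9, 68.6 and 70.7 in muscle, a difference of 0.77 (SE 0.22, adjusted p = 0.012), which no longer passed when the 20 most abundant genes of each tissue were left out of the scaling (0.50, adjusted p = 0.069). *Mycl* was higher in liver (2.57, SE 0.18, adjusted p = 4.3e-06) and *Myc* in muscle (-0.69, SE 0.22, adjusted p = 0.019). Of 10 target genes, 8 were higher in liver (median 2.70), including *Pklr* and *G6pc*. The other 2 were higher in muscle. *Txnip*, the arrestin that restrains glucose uptake, had 179.6, 308, 146 and 183 in liver and 2039, 1890.0, 1925 and 1717 in muscle, a difference of -3.26 (SE 0.18, adjusted p = 1.2e-06). *Klf10* had 9.86, 30.04, 10.6 and 16.7 in liver and 96.5, 48.0, 104 and 92.9 in muscle (-2.35, SE 0.39, adjusted p = 6.6e-04). *Arrdc4*, a relative of *Txnip* known as a target of the same factors, was higher in liver (1.03, SE 0.14, adjusted p = 2.5e-04).

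Isoform switches were examined in 37 families of paralogous genes, each with a form known from liver or other tissues and a form known from muscle. A family was called switched where the liver form was higher in liver and the muscle form higher in muscle, each with an adjusted p under 0.05. The leading form was called exchanged where, per kilobase of exon, the liver form was the higher of the pair in all 4 livers and the muscle form in all 4 muscles. By the first measure 34 of the 37 families switched, by the second 34 were exchanged, and 32 met both. Beside 38.9% of all genes, 36 of the 37 muscle forms were higher in muscle, and beside 39.9%, 35 of the 37 liver forms were higher in liver. The forms were chosen because they are known to differ, so that these counts describe the families and are no test of them. Below, a share is the muscle form's part of the pair's sum per kilobase, as a mean ± SD over 4 mice. The plot of shares gives 33 of the families.

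**Figure D4:**
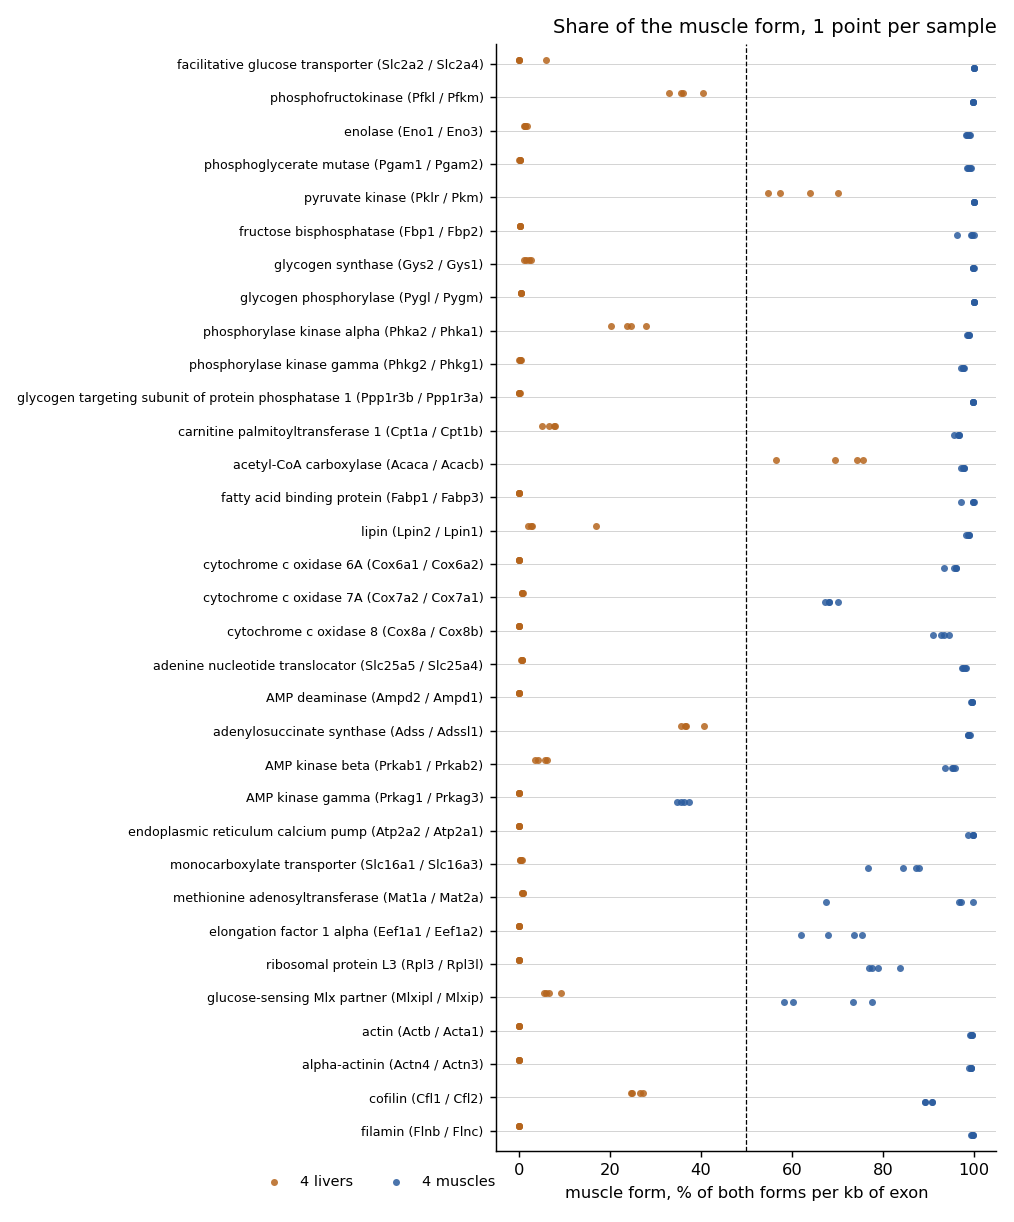
Share of the muscle form in the sum of the liver and muscle forms, in percent of the values per kilobase of exon, for 33 of the 37 families. Each point is 1 of the 4 livers or 4 muscles. Livers and muscles lie at opposite ends for most families, and in the livers pyruvate kinase and acetyl-CoA carboxylase lie above 50%. In the muscles AMP kinase gamma lies below 50%.

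All 8 families of glucose metabolism switched and 7 exchanged their leading form. The glucose transporters separated most plainly. *Slc2a4* (GLUT4), the insulin-responsive transporter, had values of 729, 611, 855 and 691 in muscle and 0, 0.218, 0 and 0 in liver, and *Slc2a2* (GLUT2) had 6.30, 6.84, 17.5 and 31.7 in liver and 0, 0, 0.0783 and 0 in muscle. *Slc2a1*, a transporter of most cells, did not pass (0.05, SE 0.18, adjusted p = 0.81). *Hk2*, the hexokinase of muscle, had 273, 588, 669.7 and 1009 in muscle and 1.53, 1.09, 0.713 and 1.52 in liver, a difference of -8.04 (SE 0.29, adjusted p = 1.0e-07). *Aldoa*, the aldolase of muscle, had 228, 244, 161 and 170.5 in liver and 16289, 15921, 23342 and 17290.0 in muscle.

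Further along glycolysis, *Eno3* (-9.62, SE 0.18, adjusted p = 5.2e-09) and *Pgam2* (-9.50, SE 0.22, adjusted p = 1.0e-08) were the muscle forms, and *Eno1* (2.67, SE 0.12, adjusted p = 2.8e-07) and *Pgam1* (3.90, SE 0.10, adjusted p = 1.4e-08) the liver forms, although other genes contain 49.5% of the 50-base words of *Eno1* and 41.5% of those of *Pgam1*. For phosphofructokinase the switch was not complete in liver, where the muscle form *Pfkm* still made up 36.2 ± 3.09%. Pyruvate kinase was the family that did not exchange its leader. *Pklr*, the liver form, had 19.7, 13.7, 16.97 and 19.2 in liver and 0.0768, 0.0806, 0.0783 and 0.627 in muscle, and *Pkm* had 29.9, 27.3, 17.5 and 22.2 in liver and 3421, 3524, 4699.8 and 4629 in muscle. Per kilobase *Pkm* therefore made up 61.6 ± 6.91% in the livers, with shares of 64.0, 70.1, 54.7 and 57.5 percent in the 4 mice. Of its 50-base words, 23.7% are shared with other genes. Fructose bisphosphatase, the reverse step to phosphofructokinase, also switched, with *Fbp1* at 918, 602, 783 and 738 in liver and *Fbp2* at 85.9, 56.8, 83.9 and 80.8 in muscle.

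All 5 glycogen families switched and were exchanged. *Gys2*, the liver glycogen synthase, had 169.8, 168, 156 and 169 in liver and 0.0768, 0.967, 1.64 and 0.488 in muscle, and *Gys1* had 6.17, 5.24, 3.56 and 2.80 and 856, 926, 916 and 819. *Pygl* had 231, 184, 223 and 225 in liver and 2.61, 2.50, 3.21 and 2.93 in muscle, and *Pygm*, the phosphorylase that McArdle disease lacks, had 0.955, 0.873, 0.713 and 0.960 and 10776, 9829, 11346 and 10865. Summed per kilobase, the phosphorylase pair was 64.8 in liver and 3725 in muscle. The subunits of the kinase that activates it switched as well. *Phkg1* made up 97.6 ± 0.300% of the gamma pair in muscle and 0.234 ± 0.171% in liver. For the alpha pair the liver kept 24.2 ± 3.14% of *Phka1*. *Ppp1r3a*, the subunit that targets protein phosphatase 1 to muscle glycogen and whose promoter is shown above, had 530.5, 381, 470.2 and 717 in muscle and 0.0636, 0, 0.285 and 0.0800 in liver. Its liver counterpart *Ppp1r3b* had 79.0, 120.02, 81.2 and 81.3 in liver and 0.615, 0.645, 0.704 and 1.11 in muscle, with mouse X5S5001 the highest liver.

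All 4 lipid families switched and 3 were exchanged. *Cpt1a*, the gate to mitochondrial fatty acid oxidation in liver, had 1266, 1355, 1157 and 1116 in liver and 28.3, 24.9, 27.3 and 31.9 in muscle. *Cpt1b*, its muscle form, had 45.9, 75.4, 53.9 and 63.7 in liver and 559, 459, 567 and 477 in muscle, but 80.4% of its 50-base words are shared with the overlapping gene model *Gm44502*, so its level is uncertain. *Fabp1*, whose promoter is shown above, had 2380.2, 1374, 3091 and 4522 in liver and 0, 0.403, 15.3 and 0.767 in muscle, with most in muscle X5S5238. *Fabp3* had 516, 329, 768 and 534 in muscle and at most 0.0713 in liver. In the lipin pair, *Lpin2* was higher in liver (5.33, SE 0.19, adjusted p = 8.5e-08) and *Lpin1* in muscle (-5.44, SE 0.62, adjusted p = 8.3e-05), and without mouse X5S5001 the difference of *Lpin1* was -6.41. Acetyl-CoA carboxylase kept its leading form. *Acacb*, whose product malonyl-CoA restrains the step run by *Cpt1a* and *Cpt1b*, had 99.3, 159.5, 147 and 124 in liver and 957, 796, 780.3 and 878 in muscle, and *Acaca*, the form of fatty acid synthesis, had 82.5, 59.4, 51.1 and 58.8 and 21.6, 24.4, 17.7 and 23.9. The share of *Acacb* was 69.0 ± 8.73% in liver and 97.7 ± 0.345% in muscle, and *Acaca* overlaps other annotated genes and shares 49.1% of its 50-base words.

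The 4 mitochondrial families were exchanged as well. *Cox6a2*, the heart and muscle form of a cytochrome c oxidase subunit, had 578, 614, 1003 and 520.1 in muscle and 0.0636, 0, 0.356 and 0 in liver, and *Cox8b* had 199.5, 200.3, 429 and 200.5 in muscle and 0 in liver, at least 1072-fold higher. *Cox7a1* made up 68.4 ± 1.17% of its pair in muscle and 0.703 ± 0.123% in liver, so that *Cox7a2* remained a large part in muscle. *Cox7a2* had 127, 112, 132 and 134 in liver and 82.1, 79.2, 145 and 77.4 in muscle, and its difference of 0.44 (SE 0.16, adjusted p = 0.030) no longer passed in 8 of the alternative analyses, including the fit without the mouse block. In muscle the subunit genes *Cox6a2*, *Cox7a1*, *Cox7a2* and *Cox8b* were all highest in mouse X5S5238, and without that mouse the difference of *Cox7a2* was 0.63 (adjusted p = 0.0025). *Slc25a4*, the adenine nucleotide translocator of muscle, had 2319, 2379.7, 4282 and 3324 in muscle and 4.65, 4.07, 3.71 and 5.20 in liver, whereas *Slc25a5*, 46.6% of whose 50-base words occur in other genes, had 535, 452, 568 and 530.0 in liver and 37.3, 40.2, 46.3 and 41.9 in muscle.

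Of the 4 nucleotide and AMP kinase families, 3 switched and 3 were exchanged. *Ampd1*, AMP deaminase of muscle, had 1115, 1096, 946 and 955 in muscle and 0 in liver, at least 4285-fold higher. *Adssl1*, its partner in the purine nucleotide cycle, had 889.9, 931, 1491 and 1161 in muscle and 30.2, 26.4, 27.7 and 27.4 in liver, where it still made up 37.4 ± 2.33% of its pair. For the beta subunit of AMP kinase the share of *Prkab2* was 95.1 ± 0.914% in muscle and 4.89 ± 1.24% in liver. The gamma subunit was an exception. *Prkag3*, the form of fast fibres, had 61.0, 66.6, 68.0 and 65.7 in muscle and at most 0.0800 in liver, but *Prkag1* was also higher in muscle (-0.44, SE 0.10, adjusted p = 0.0036), with 40.7, 42.4, 40.2 and 35.2 in liver and 53.5, 54.6, 57.1 and 51.3 in muscle. *Prkag3* made up 36.01 ± 1.11% of the pair in muscle and so did not lead.

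All 3 ion and monocarboxylate transport families exchanged their leading form and 2 switched. *Slc16a3* (MCT4), which exports lactate, had 414, 288, 648 and 592 in muscle and 0.700, 0.873, 0.428 and 0.800 in liver, and its share in muscle was 84.1 ± 5.18%. The calcium pump did not switch, because *Atp2a2* had 380.1, 531, 509 and 508 in liver and 871, 156, 121 and 117 in muscle and did not pass (1.18, SE 0.51, adjusted p = 0.063). The single muscle above the livers was that of mouse X5S4299, the one with the high slow-fibre transcripts, and without that mouse the difference was 1.97 (adjusted p = 1.8e-05). Even in that muscle *Atp2a1* made up most of the pair, with shares of 98.6, 99.8, 99.8 and 99.8 percent.

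Of the 2 amino acid families, 1 switched. *Gls2*, which releases ammonia from glutamine in liver, had 749, 661, 493 and 430.2 in liver and 0.307, 0.0806, 1.02 and 0 in muscle. Methionine adenosyltransferase exchanged its leading form without a switch. *Mat2a*, the form of most tissues, had 122, 129, 127 and 133 in liver and 126, 137, 98.2 and 103 in muscle (difference 0.15, SE 0.12, adjusted p = 0.28, 95% interval -0.13 to 0.43). The exchange thus rested on the level of *Mat1a*. The share of *Mat2a* in muscle was 99.8, 97.1, 67.6 and 96.7 percent, and the low value was that of mouse X5S5238, the muscle with the most liver transcripts.

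Translation factors switched too. *Eef1a2*, an elongation factor of muscle and neurons, had 1466, 1434, 2145 and 1862 in muscle and 0 in liver, at least 7198-fold higher, and made up 69.8 ± 6.03% of its pair. *Rpl3l*, the ribosomal protein that stands in for Rpl3 in striated muscle, had 355, 381, 573 and 441 in muscle and at most 0.0727 in liver, and made up 79.3 ± 3.04%. *Rpl3* was higher in liver (1.52, SE 0.11, adjusted p = 6.6e-06), as was *Eef1a1* (3.24, SE 0.14, adjusted p = 2.7e-07), but they share 67.1% and 52.4% of their 50-base words, *Rpl3* with the pseudogene *Rpl3-ps1*. The partners of Mlx formed such a pair as well. *Mlxip* made up 73.4, 77.6, 60.2 and 58.2 percent of its pair with *Mlxipl* in the muscles and 6.58, 9.32, 5.55 and 5.97 percent in the livers. At 20 months its share in muscle was 52.2 ± 6.31% (mean ± SD, n = 5), from 42.1 to 58.9 percent. The leading form of this pair was therefore not exchanged at that age.

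All 4 cytoskeletal families switched and were exchanged. *Acta1* made up 99.5 ± 0.136% of its pair with *Actb* in muscle and none in liver. The other cytoplasmic actin gene, *Actg1*, did not pass (0.37, SE 0.27, adjusted p = 0.24). *Actn3*, the alpha-actinin of fast fibres, had 8972, 8611, 9566 and 9587 in muscle and 1 read in all 4 livers, and *Actn2* was high in muscle as well (2476 ± 375). *Cfl2*, the cofilin of muscle, made up 90.1 ± 0.869% in muscle and 25.8 ± 1.35% in liver. *Flnc*, the filamin of the Z-disc, had 7201, 23993, 11008 and 19388 in muscle, with mouse X5S5001 the highest.

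Some abundant genes were level between the tissues. Of 785 genes with a mean of at least 100 in both tissues, 158 had a 95% interval within 0.5 of 0. The 5 with the narrowest intervals around 0 were *Gtf2i*, *Nap1l1*, *Afg3l2*, *Nisch* and *Fech*. *Fech*, ferrochelatase, the last step of haem synthesis, had 198, 200.4, 186 and 188 in liver and 193, 198, 197 and 201 in muscle (95% interval -0.26 to 0.19). *Gtf2i*, a transcription factor gene, had 150.3, 155, 154 and 156 in liver and 159, 152, 157 and 151 in muscle (95% interval -0.22 to 0.21). *Afg3l2*, a protease of the mitochondrial inner membrane, had 131, 129.8, 138 and 143 in liver and 119.9, 119, 149 and 154 in muscle.

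Some differences varied between the mice. The 8 genes with the widest spread of the within-mouse difference were *Alb*, *Hspa1a*, *Hspa1b*, *Egr1*, *Dnajb1*, *Serpina3k*, *Mup17* and *Apoa4*. For *Alb* the muscle values are given above. *Hspa1b* had 106, 4038, 139 and 1071 in muscle and 146, 75.9, 20.2 and 23.4 in liver, so both tissues varied, and in mouse X5S4299 the liver was above the muscle. *Mup17*, a major urinary protein gene, had 13.4, 25.7, 1416 and 728 in liver, low in mice X5S4299 and X5S5001 and high in the other pair of mice, but 78.1% of its 50-base words are shared with other genes. *Apoa4*, an apolipoprotein of liver and gut, ran the other way, with 4673, 2644, 606 and 618 in liver and 0.231, 0.403, 5.56 and 0.418 in muscle.

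The comparison was repeated in 5 livers and 5 muscles of 20-month-old *Mlx*KO mice, whose sample names share no mouse number, by the same limma fit without a block. At that age 11458 of 13884 genes (82.5%) passed, 42% of the genes tested with a higher level in liver and 40.5% in muscle. A difference of at least 3 was reached by 1223 genes in liver (8.81%) and 816 in muscle (5.88%). Of the 37 families, 34 switched and 33 were exchanged at 20 months, and 33 switched at both ages. The pair of *Mlxip* and *Mlxipl*, exchanged at 5 months, was not exchanged at 20 months. *Mlx* was higher in liver by 1.13 at 20 months and 1.54 at 5 months, and the difference between the ages did not pass (-0.41, adjusted p = 0.14). The ages were different animals, and age and any difference in handling between them cannot be told apart.

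The tissue difference itself changed with age, by a limma interaction term, for 3123 of 14346 genes (21.8%), and for 12 of the 74 isoform genes. *Flnc* moved most. Its muscle values of 7201, 23993, 11008 and 19388 at 5 months compare with 3457 ± 2103 (mean ± SD, n = 5) at 20 months, and its difference was -13.69 and -11.16, a change of 2.53 (adjusted p = 0.0022). *Hk2* had a mean of 635 ± 302 in muscle at 5 months and 433 ± 139 at 20 months, and in liver 1.21 ± 0.391 and 4.80 ± 2.67, a change of 1.73 (adjusted p = 0.021). *Slc2a2* in liver was 15.6 ± 11.9 at 5 months and 46.8 ± 14.2 at 20 months, a change of 1.77 (adjusted p = 0.014). *Pklr*, a target of ChREBP, was 17.4 ± 2.73 and 28.9 ± 6.53 in liver (0.92, adjusted p = 0.014), and *Pkm* was 24.2 ± 5.54 and 42.0 ± 11.6 (0.80, adjusted p = 0.041). *Rpl3* (0.66, adjusted p = 0.020), *Pygm* (0.56, adjusted p = 0.014), *Cfl1* (0.53, adjusted p = 0.014) and *Phka2* (0.53, adjusted p = 0.038) changed towards a higher liver-to-muscle difference. *Pgam2* (-0.74, adjusted p = 0.041) and *Adssl1* (-0.50, adjusted p = 0.048) changed towards muscle. Over 21 alternative analyses, *Adssl1* no longer passed in 17, *Phka2* and *Pkm* in 11 and *Pgam2* in 10. Acetyl-CoA carboxylase, whose liver share of *Acacb* was 69.0% at 5 months, had a share of 46.3% at 20 months, which was not tested. The plot of both ages sets the differences of the isoform genes side by side.

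**Figure D5:**
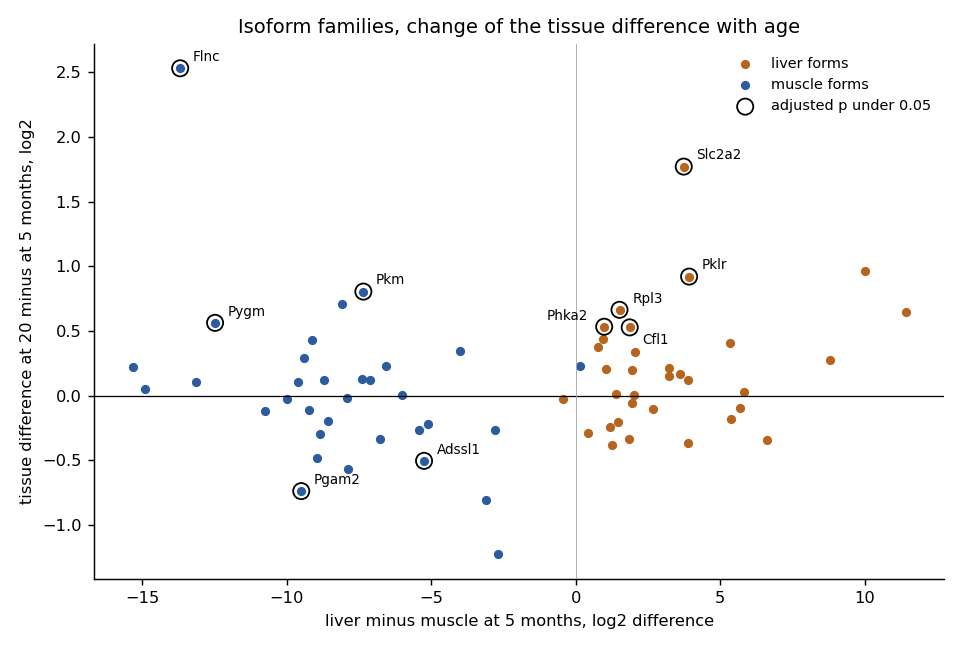
Change of the tissue difference with age (vertical axis, 20 minus 5 months, log2) against the tissue difference at 5 months (horizontal axis, liver minus muscle, log2) for the liver and muscle forms of 33 of the 37 families. Circled points have an adjusted p under 0.05 for the change. *Flnc* has the largest change of the genes drawn (2.53), followed by *Slc2a2* (1.77).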

How the data were processed

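Libraries were made from mRNA selected with poly-T beads. Reads were assigned to genes by the authors with CLC Genomics Workbench, who deposited 1 normalised signal per gene and sample, the reads of the gene divided by a factor of the library. The genome, annotation, strand setting and factor behind these values are not given in the sources used here, so overlapping genes cannot be told apart. The submitters' processing notes name GRCm38.p6 and mm10. Every value was a whole multiple of what 1 read is worth (tolerance 0.01), so whole reads were recovered. Groups follow the tissue and age of the labels. No 2 libraries of a group agreed within sampling noise (chi-square per degree of freedom 14.4 to 110 in liver and 34.9 to 97.6 in muscle at 5 months). The livers fell into 2 pairs, X5L5238 with X5L5239 (14.4) and X5L4299 with X5L5001 (45.6), beside 96.6 to 110 between the pairs. The cause of this was not tested.

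Genes reaching 1 or more in 4 or more samples were tested on log2(value + 1) with limma 3.58.1 in R 4.3.3 (variance trend, Benjamini-Hochberg, adjusted p under 0.05). The mouse was a block, because liver and muscle with 1 number come from the same animal. Deviations from the group means correlated at 0.0234 to 0.320 (mean 0.167) between tissues of a mouse and at -0.274 to 0.171 between mice. These ranges overlap, and centring on the group means ties both sets of correlations together, so they do not test the pairing. The age difference was an interaction over the 5-month and 20-month samples without a block. P-values at 5 months rest on the spread of the within-mouse differences among these mice, which limma moderates across genes. Those of the fits without a block rest on the spread between samples of a group.

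The alternatives were edgeR 4.0.16 (quasi-likelihood) and DESeq2 1.42.0 on recovered reads, other pseudocounts, filters and scalings, no variance trend, sample weights, no block, all 27 samples in 1 fit, and leaving out each mouse or sample. On simulated reads for the 5-month comparison (12889 genes), limma recovered 36 of 66 genes changed by 1 on the log2 scale, 62 of 63 by 2 and 65 of 65 by 3, with 9 unchanged genes called. Far fewer genes were changed there than the 78.8% that passed in the data. The adjusted threshold was therefore stricter in the simulation, and its recovery does not measure the power of the comparison itself. Exon lengths are from GENCODE M21 (28046 genes), and 35337 genes matched RefSeq by gene ID. The genes named are *Mlx*, the 15 with the largest difference in each direction without overlap, both forms of each family, the 5 level and 8 most variable genes, and members of the lists and markers. The members, lists and families were chosen with earlier results of these data known. Some genes are counted but not reported here.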

Additional observations from a re-analysis of the deposited data

Results flagged for a closer look

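Of 188 groups of 4 samples (a named gene in 1 tissue at 5 months), 32 had a sample set apart from the other 3 by Dixon's test, and 31 of these are given. Chance does this for about 1 in 20 groups that are independent and not chosen by their values. Here the same library recurs over many genes, and some genes were named for their spread between mice, so that rate does not apply to the count. Most of the samples set apart were muscle X5S5238, which was highest for genes of liver. Its values were *Alb* 222, *Mat1a* 48.2, *Cyp4a14* 58.9, *Serpina3k* 53.0, *Apoa1* 44.8, *Pzp* 9.55 and *Serpina1c* 37.96. Further values there were *Bhmt* 50.6, *Ahsg* 30.9, *Gc* 18.6, *Mug1* 16.9, *Fga* 10.8, *Cyp4a10* 30.1 and *Mup17* 7.36. Values of other liver genes were *Apoa4* 5.56, *Fbp1* 3.44 and *Fabp1* 15.3. The same muscle was apart for the cytochrome c oxidase genes *Cox7a2* 145, *Cox7a1* 254 and *Cox8b* 429.

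Muscle X5S5001 was the highest for *Egr1* 859.6, *Dnajb1* 692 and *Eef1a1* 754, and muscle X5S4299 for *Atp2a2* 871. In liver, X5L5001 was the highest for *Cyp4a14* 25023, *Mug1* 7658, *Nap1l1* 159, *Ppp1r3b* 120.02 and *Lpin1* 229. Liver X5L5238 was the lowest for *Gys2* (156) and that of mouse X5S4299 the lowest for *Atp2a2* (380.1). In each case the cause was not tested.

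For 12 of the 74 isoform genes the tissue difference changed between 5 and 20 months by the interaction term of limma. Over all genes it changed for 3123 of 14346 (21.8%), so such changes were no more frequent among the isoform genes. The change is given as 20 minus 5 months on the log2 scale for 11 of them. The tissue difference moved towards liver for *Flnc* (2.53), *Slc2a2* (1.77), *Hk2* (1.73), *Pklr* (0.92), *Pkm* (0.80), *Rpl3* (0.66), *Pygm* (0.56), *Phka2* (0.53) and *Cfl1* (0.53). It moved towards muscle for *Pgam2* (-0.74) and *Adssl1* (-0.50).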

How the results depend on the processing

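At 5 months, 104 of 110 named tissue differences kept their direction and their side of the threshold in all 18 alternatives. Of the rest, *Cox7a2* no longer passed in 8 and *Mlxipl* in 1, and *Atp2a2*, *Egr1*, *Fech* and *Gtf2i* passed in 4, 2, 1 and 1. Of 74 age differences, 58 did so over 21 alternatives. That of *Lpin1*, -0.26 (limma adjusted p = 0.84), lay between -0.71 and 0.72 when 1 sample was left out, and it reversed to 0.72 (limma adjusted p = 0.026) without liver X5L5001. Strong muscle genes at 5 months, 913, numbered 1471 with a pseudocount of 0.1, 1545 by edgeR and 1551 by DESeq2 (in liver 1121 became 1479, 1471 and 1492), and at 20 months 816 became 1352, 1388 and 1382. A smaller pseudocount widens the differences of low genes by construction. The mouse pairing mattered little: with no replicate block 10363 genes passed and 33 families switched, and among the named genes *Cox7a2* alone no longer passed. With the mouse as a replicate block, 3567 genes changed with age beside 3123.

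Leaving out 1 mouse gave 9858 to 10330 genes at 5 months, 1114 to 1149 strong in liver, 896 to 934 strong in muscle and 33 to 34 families. Leaving out 1 sample gave 11045 to 11549 genes at 20 months and 2332 to 3784 age changes. Quantile normalization shifted the median difference by -0.15. Scaling without the 20 most abundant genes of each tissue shifted it by -0.25, with 42.0% of calls higher in liver beside 50.7% and 32 families switched. A filter on a mean of 5 left 4 secreted factors of muscle called, since fewer were tested. A gene under 3 reads in a library lies below what its depth shows.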

Other observations

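Several families had further members that the liver and muscle pairs leave out, and they did not all take the direction of muscle. *Slc16a7* (MCT2), a monocarboxylate transporter of high affinity, had values of 135 ± 5.16 in liver and 1.30 ± 0.457 in muscle (difference 5.90, SE 0.14, limma adjusted p = 1.3e-08) as mean ± SD over 4 mice. *Aldoc*, an aldolase of brain, had 6.95 ± 2.01 in liver and 0.292 ± 0.305 in muscle (difference 2.61, SE 0.23, limma adjusted p = 1.8e-05). On the muscle side, *Ampd3* had 1.87 ± 1.34 in liver and 190.2 ± 168 in muscle (difference -5.82, SE 0.19, limma adjusted p = 5.8e-08), with a wide spread among the muscles. *Ppp1r3c*, a glycogen targeting subunit found in several tissues, had 108 ± 35.4 in liver and 529 ± 103 in muscle (difference -2.33, SE 0.26, limma adjusted p = 7.1e-05). *Fabp4*, the fatty acid binding protein of adipocytes and small vessels, had 13.8 ± 6.04 in liver and 353 ± 44.9 in muscle (difference -4.67, SE 0.24, limma adjusted p = 7.6e-07). The adipocyte and endothelial markers, which did not all take 1 direction, are given above, and their part in it was not tested. *Lpin3* (-0.08), *Prkag2* (0.06), *Actn1* (-0.35) and *Cox7a2l* (0.27) did not pass the test.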
